A study of Mus musculus with 6 samples.

Results

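The small leucine-rich proteoglycans (SLRPs) are a family of secreted matrix proteins, and 10 of their genes (Dcn, Bgn, Lum, Fmod, Ogn, Aspn, Prelp, Omd, Kera and Podn) were picked by their symbols out of 45777 genes in the count table. RNA was sequenced from tumors of B16F10, an established mouse melanoma cell line, that had been grown at 2 sites, and the question was how the transcriptome differs between them. The footpad group held 3 tumors from the hind footpad and the flank group 3 tumors from the flank skin, with 1 library per tumor. According to the sample labels all hosts were Foxn1-/- mice at an age of 8 weeks, which lack a thymus and with it most T cells, whereas the study describes grafts of these cells both into such mice and into C57BL/6J mice and does not name the host of the sequenced tumors. Both groups carried the same cell line and were untreated as far as the labels say, so the site was the difference between them. The study describes these grafts as placed at several sites of the same mouse at once, so footpad and flank tumors may share a host, but the labels do not tie tumors to mice. The labels describe tumors that were removed for RNA extraction, and the methods describe tumor cells that were isolated first, by a procedure that is not given.

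SLRPs consist of a short protein core of leucine-rich repeats, and many carry chains of chondroitin, dermatan or keratan sulfate. They bind the surface of collagen fibrils and set how thick and how regularly spaced the fibrils become in skin, tendon and cornea. They also hold growth factors such as TGF-beta in the matrix, and fragments released from the matrix can act on receptors of neighboring cells. Decorin, biglycan and asporin form class I of the family. Lumican, fibromodulin, PRELP, keratocan and osteomodulin form class II, osteoglycin belongs to class III, and podocan to a later-described class. In skin and tendon, fibroblasts are their main source.

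Each library held between 46529649 and 66364366 reads counted on genes. Levels are given as CPM, read counts scaled by a TMM-adjusted library size, and the values of a site are listed in the order replicate 1, 2 and 3. FPKM, which the authors scaled for transcript length, were used for the order of levels within the family and for its make-up. Ratios between genes, and sums set beside markers, are of CPM unless FPKM is named, and CPM are not corrected for length. A gene was called when its adjusted p from edgeR's quasi-likelihood test was under 0.05 and its level differed at least 2-fold, and 17210 genes had enough reads for the test. Of the 10 SLRP genes, 8 were tested, and the other 2, Omd and Kera, had too few reads. Fmod and Podn passed the filter, which asks for about 0.171 CPM in 3 tumors, through their level in footpad tumors.

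Of the 8 tested genes, Dcn, Bgn, Lum, Fmod and Aspn rose in footpad tumors, by 5.51-fold (Aspn) to 16.4-fold (Fmod). Over all genes, 2.89% of those tested were called higher and 0.872% lower. The other 3, Prelp, Ogn and Podn, did not pass, and no SLRP gene was called lower by edgeR or by DESeq2, and none of them was lower at an unadjusted p below 0.05. In 6 of the 8 genes every footpad tumor lay above every flank tumor, as in 17.5% of all genes tested. The median log2 fold change of the 8 genes was 2.67, beside a median of -0.004 over all genes tested. In RNA from bulk tumor material, which held markers of host cells as given further on, fewer cells of a type and less RNA per cell cannot be told apart.

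**Figure D1:**
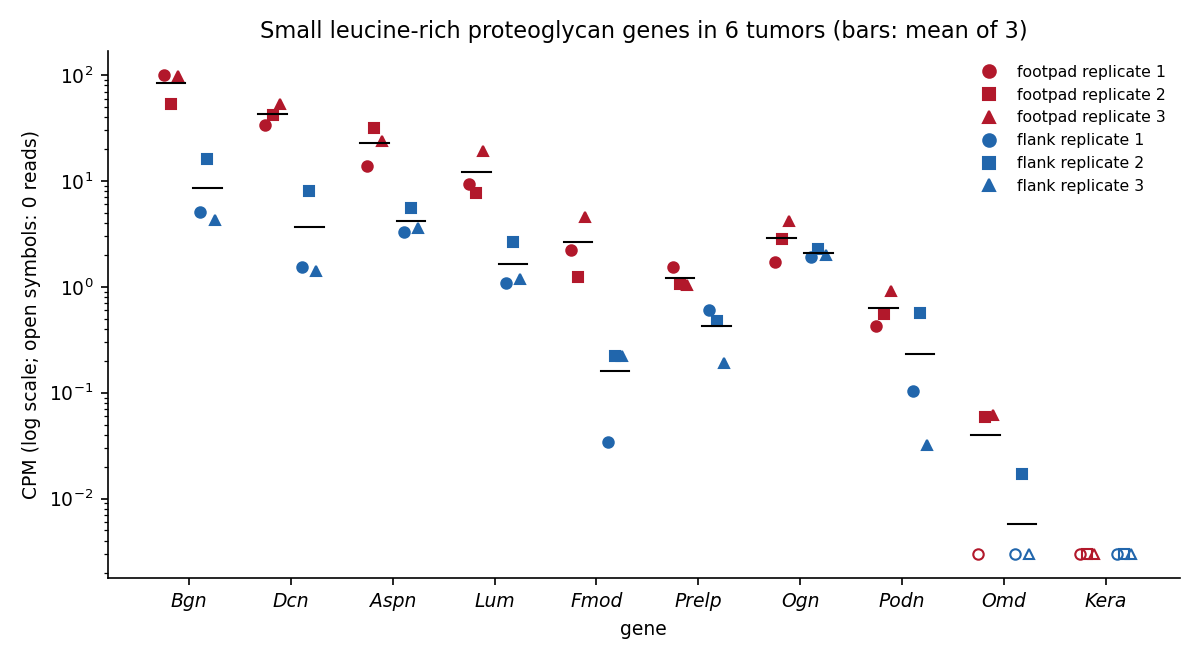
CPM (log axis) of the 10 SLRP genes in each of the 6 tumors, with red symbols for footpad and blue symbols for flank tumors, a symbol shape for each replicate and a bar for the mean of 3; open symbols at the bottom stand for 0 reads. The footpad tumors lie above the flank tumors in Bgn, Dcn, Aspn, Lum, Fmod and Prelp, and the sites overlap in Ogn and Podn.

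Decorin wraps around collagen fibrils and gave the family its best-known member. Its gene Dcn lies at chr10:97479500-97518163 on the plus strand of GRCm38, and had 33.6, 42.3 and 53.8 CPM in footpad tumors and 1.55, 8.02 and 1.42 CPM in flank tumors. The lowest footpad tumor was 4.19 times as high as the highest flank tumor, flank replicate 2. The means were 43.2 ± 10.1 CPM and 3.67 ± 3.77 CPM (SD, n = 3), and the log2 fold change was 3.56 ± 0.69 (SE; edgeR, adjusted p = 0.0353).

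Biglycan, the closest relative of decorin, is held in the matrix and, when released, acts on Toll-like receptors. Bgn, at chrX:73483601-73495936 on the plus strand, was at 100.9, 53.7 and 98.6 CPM in footpad tumors and at 5.14, 16.2 and 4.28 CPM in flank tumors. Again no tumors overlapped, and flank replicate 2 was the highest of its site. The log2 fold change was 3.30 ± 0.55 (SE; edgeR, adjusted p = 0.0253).

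The ratio of decorin to biglycan, which does not depend on the scaling of a library, did not separate the sites. As a log2 ratio of CPM it was -1.59, -0.345 and -0.874 in footpad tumors and -1.73, -1.02 and -1.59 in flank tumors. The difference of the means was 0.51 (two-sided exact permutation test, p = 0.2, where 0.1 is the smallest p that 3 tumors against 3 allow). Footpad replicate 2 had the highest ratio, and without it the difference was 0.21.

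Asporin, which lacks a glycosaminoglycan chain and binds collagen and TGF-beta, had the smallest adjusted p of the family. Aspn, at chr13:49544443-49567565 on the plus strand, was at 13.8, 31.4 and 23.8 CPM in footpad tumors and at 3.33, 5.59 and 3.60 CPM in flank tumors. Its log2 fold change was 2.46 ± 0.35 (SE; edgeR, adjusted p = 0.0174). Unlike Bgn, Lum and Fmod, which were lowest in footpad replicate 2 among the footpad tumors, Aspn was highest there.

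In class II, lumican, which keeps collagen fibrils thin and evenly spaced in cornea and skin, and fibromodulin, which binds the same site on collagen, both rose. Lum, at chr10:97565501-97572703 on the plus strand, was at 9.32, 7.73 and 19.3 CPM in footpad and at 1.09, 2.67 and 1.20 CPM in flank tumors (log2 fold change 2.87 ± 0.50, SE; edgeR, adjusted p = 0.0271). Fmod, at chr1:134037254-134048280 on the plus strand, was at 2.25, 1.23 and 4.55 CPM in footpad tumors. In the flank tumors only 2, 13 and 14 reads were counted on it, which equals 0.0345, 0.222 and 0.224 CPM (log2 fold change 4.04 ± 0.77, SE; edgeR, adjusted p = 0.0349). Fmod thus had the largest fold change of the family, and the value rests on few reads in the flank.

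Prelp codes for a protein that links the matrix to basement membranes and lies close to Fmod, at chr1:133910304-133930102 on the minus strand. Its level was low at both sites, with 1.55, 1.07 and 1.04 CPM in footpad tumors and 0.604, 0.479 and 0.192 CPM in flank tumors. The tumors did not overlap, but the lowest footpad tumor was 1.72 times the highest flank tumor, and the gene did not pass (log2 fold change 1.52 ± 0.51, SE; edgeR, adjusted p = 0.119, 0.072 from DESeq2).

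Keratocan, a keratan sulfate proteoglycan of the cornea, was not detected. Kera, at chr10:97606962-97613688, had 0 reads in all 6 tumors, and a count of 3 reads, taken as the limit of detection, equals between 0.0438 and 0.0673 CPM, a limit that covers counting error only. Osteomodulin is known from bone and tooth. Omd, at chr13:49582462-49592612, had 0, 4 and 3 reads in footpad tumors and 0, 1 and 0 reads in flank tumors, too few for a comparison.

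Osteoglycin, also called mimecan, showed no difference that exceeded the spread between tumors. Ogn, at chr13:49608015-49624501 on the plus strand, was at 1.71, 2.84 and 4.17 CPM in footpad tumors and at 1.93, 2.26 and 2.01 CPM in flank tumors, so that footpad replicate 1 lay under all flank tumors. The log2 fold change was 0.49 ± 0.37 (SE; edgeR, adjusted p = 0.441). The coefficient of variation was 42.4% in footpad tumors and 8.21% in flank tumors, where it was 29.7% or more for each of the other 7 tested genes. The log2 ratio of Ogn to Aspn was between -3.47 and -2.51 in footpad and between -1.31 and -0.785 in flank tumors, values that were picked after they were seen and that carry no test.

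Podocan, first described in the kidney, was also too variable to pass. Podn, at chr4:108014793-108031954 on the minus strand, was at 0.427, 0.554 and 0.919 CPM in footpad tumors and at 0.103, 0.565 and 0.0320 CPM in flank tumors (log2 fold change 1.44 ± 0.92, SE; edgeR, adjusted p = 0.366). Flank replicate 2 lay within the range of the footpad tumors, and without it the log2 fold change was 3.19 (edgeR adjusted p = 0.0934).

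**Figure D2:**
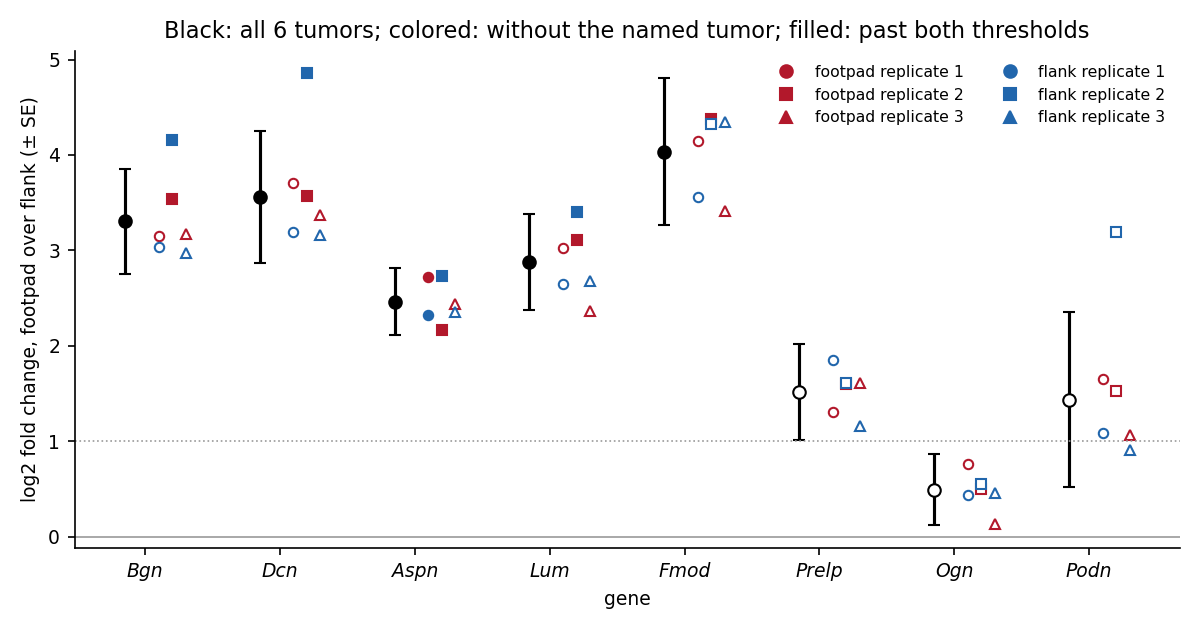
Log2 fold change of footpad over flank tumors for the 8 tested genes, with all 6 tumors in black (bars: standard error) and without each tumor in turn in color; filled symbols passed both thresholds and the dotted line marks a fold change of 2. Every value lies above 0, between 0.14 in Ogn without footpad replicate 3 and 4.86 in Dcn without flank replicate 2, and few symbols are filled without footpad replicate 1 or 3 or without flank replicate 1 or 3.

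The calls, unlike the directions, changed when single tumors were left out, as did the calls over all genes, and the cause was not tested. Without footpad replicate 2 the same 5 genes passed, beside 3.62% of all genes. Without flank replicate 2, Aspn, Bgn, Dcn and Lum passed, beside 2.39% of all genes. Without flank replicate 1 or without footpad replicate 1, Aspn alone passed, beside 1.30% and 0.145% of all genes. Without footpad replicate 3 no SLRP gene passed and 0% of all genes did, and without flank replicate 3 none passed, beside 0.201%; in both of these edgeR fits 6 SLRP genes were higher with a 2-fold change at unadjusted p below 0.05, as were 8.12% and 7.20% of all genes. DESeq2, run on all 6 tumors, called the same 5 genes as edgeR, beside 6.73% of the genes for which it gave an adjusted p.

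Flank replicate 2 was the highest flank tumor for 6 of the 8 tested genes, the exceptions being Fmod and Prelp, and footpad replicate 3 was the highest footpad tumor for 5 of 8. Leaving out flank replicate 2 raised the log2 fold change of Dcn from 3.56 to 4.86 (edgeR adjusted p = 0.0029) and that of Bgn from 3.30 to 4.16 (edgeR adjusted p = 0.0066).

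Per transcript length, biglycan and decorin had the highest mean levels of the family at both sites. In footpad tumors the mean FPKM was 30.6 for Bgn, 20.7 for Dcn, 8.84 for Aspn and 5.21 for Lum. It was 1.01 for Ogn, 0.758 for Fmod, 0.292 for Prelp and 0.142 for Podn. In this order the ranges over the tumors overlapped between Bgn and Dcn, between Aspn and Lum, and between Ogn and Fmod, and the other tested neighbors were apart. In flank tumors the mean FPKM was 3.26 for Bgn, 1.83 for Dcn, 1.61 for Aspn, 0.724 for Lum and 0.711 for Ogn, and the neighbors among these 5 overlapped. Aspn lay above Dcn in flank replicate 1, at 1.158 against 0.670 FPKM, and in flank replicate 3, at 1.357 against 0.669 FPKM, and the place of Dcn in the mean rests on flank replicate 2, at 4.16 FPKM against 2.30 FPKM. Prelp, Podn and Fmod followed at 0.101, 0.0528 and 0.0463 FPKM, and also overlapped with each other, whereas Ogn and Prelp did not. Fmod stood in the place after Ogn in footpad tumors and after Podn in flank tumors.

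The family summed to 58.8, 60.0 and 84.0 FPKM in footpad tumors and to 4.75, 15.3 and 4.90 FPKM in flank tumors. Decorin and biglycan together made up 70.2% to 82.9% of this sum in footpad and 45.6% to 69.3% in flank tumors. The share of Ogn was between 5.46% and 14.04% in flank tumors and between 0.914% and 1.73% in footpad tumors. The share of Lum, between 5.83% and 10.1% in footpad and between 8.10% and 10.4% in flank tumors, overlapped. These shares are parts of 1 sum and were not tested.

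**Figure D3:**
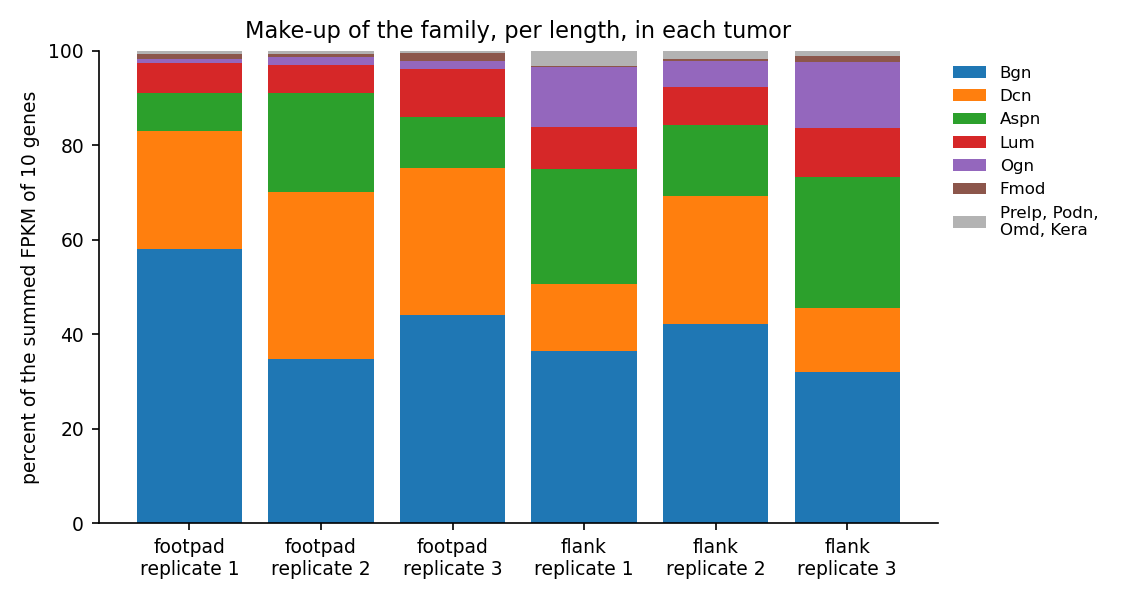
Share of each SLRP gene in the summed FPKM of the 10 genes (percent, stacked to 100), with 1 bar for each tumor. Bgn and Dcn take 70.2% or more in each footpad tumor, and the Ogn segment is wider in the flank tumors, at 5.46% to 14.04%.

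Several SLRP genes lie side by side in the genome. On chromosome 10 the order is Dcn, Lum, Kera and Epyc, all on the plus strand. Dcn and Lum rose, Kera had 0 reads, and Epyc, which codes for the cartilage protein epiphycan, had at most 13 reads in a tumor and was not tested. On chromosome 13 the order is Ecm2, Aspn, Omd and Ogn, again all on the plus strand. Ecm2, another gene of a leucine-rich repeat matrix protein, was at 1.12, 1.49 and 2.001 CPM in footpad tumors and at 0.311, 0.274 and 0.176 CPM in flank tumors (log2 fold change 2.59 ± 0.44, SE; edgeR, adjusted p = 0.0254). Thus Ecm2 and Aspn rose, while Omd next to them had at most 4 reads in a tumor and Ogn was not called.

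All 4 genes on chromosome 13 lie within Cenpp, a kinetochore gene on the minus strand, and the sources used here do not say whether reads were counted by strand. The annotated exons of Cenpp share 7 bases with those of Aspn and 0 bases with those of Ecm2, Omd and Ogn. Cenpp was at 4.76, 10.9 and 7.37 CPM in footpad tumors and at 14.1, 10.9 and 13.5 CPM in flank tumors (log2 fold change -0.74 ± 0.31, SE; edgeR, adjusted p = 0.186). The log2 ratio of Aspn to Cenpp was between 1.53 and 1.69 in footpad and between -2.09 and -0.967 in flank tumors. For Ogn it was between -1.94 and -0.823 in footpad and between -2.87 and -2.28 in flank tumors. How many reads on these genes came from the other strand was not tested.

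**Figure D4:**
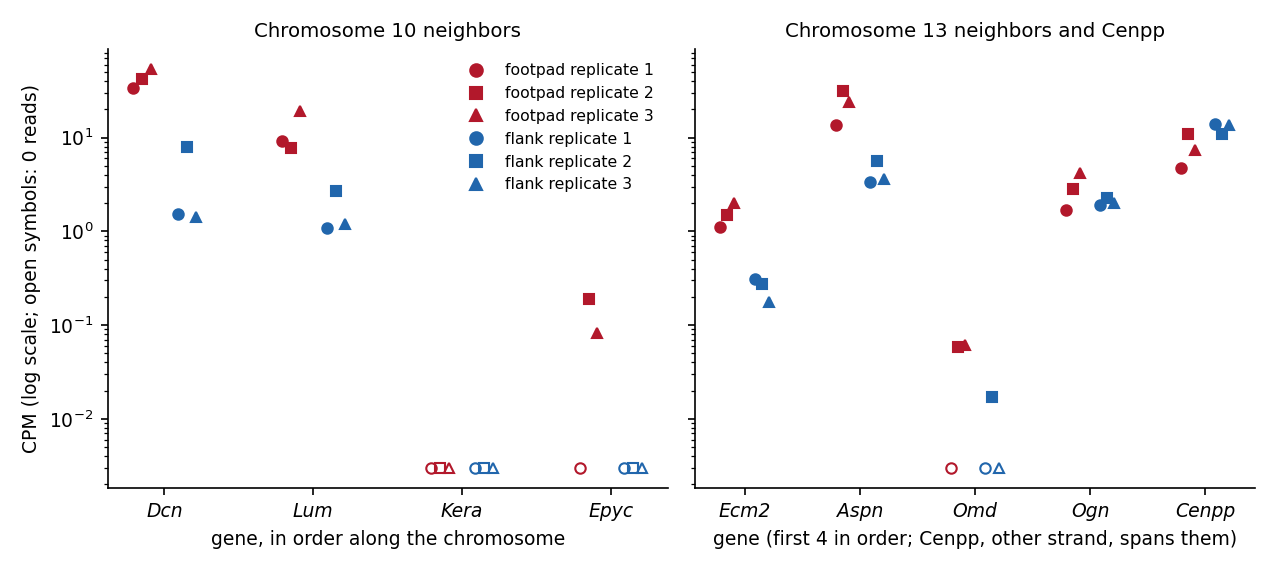
CPM (log axis) of the neighboring genes on chromosome 10 (left) and chromosome 13 with Cenpp (right) in the 3 footpad (red) and 3 flank tumors (blue); open symbols stand for 0 reads. Dcn, Lum, Ecm2 and Aspn are higher in every footpad tumor, the sites overlap in Ogn, with flank tumors at 1.93 to 2.26 CPM within the footpad range of 1.71 to 4.17 CPM, and Cenpp lies lower in the footpad, with its nearest tumors both at 10.9 CPM.

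Windows of 300 bases around the gene starts (250 bases before the start and 50 after, RefSeq, GRCm38.p6) were found for 8 of the 10 genes, all but Dcn and Lum, and those of 4 tested genes are printed here, 3 of genes that rose and that of Ogn, the neighbor that did not. They are written 5′ to 3′ on the strand of the gene, all of them plus. Capitals mark matches on either strand to the TEAD motif CATTCC, the TATA box TATAAA, the AP-1 motif TGANTCA or the SMAD motif CAGAC, and matches may overlap.
Aspn, chr13:49544193-49544492: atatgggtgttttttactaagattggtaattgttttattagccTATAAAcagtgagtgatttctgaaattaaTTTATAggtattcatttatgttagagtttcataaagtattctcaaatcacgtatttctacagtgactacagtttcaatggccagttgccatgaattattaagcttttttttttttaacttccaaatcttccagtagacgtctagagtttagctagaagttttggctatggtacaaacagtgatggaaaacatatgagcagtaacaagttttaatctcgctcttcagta
Ogn, chr13:49607765-49608064: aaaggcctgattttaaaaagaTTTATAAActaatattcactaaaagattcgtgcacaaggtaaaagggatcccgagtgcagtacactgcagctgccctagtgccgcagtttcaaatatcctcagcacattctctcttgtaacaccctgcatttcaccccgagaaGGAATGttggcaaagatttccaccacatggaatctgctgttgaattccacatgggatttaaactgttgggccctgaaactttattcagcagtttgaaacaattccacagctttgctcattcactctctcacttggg
Fmod, chr1:134037004-134037303: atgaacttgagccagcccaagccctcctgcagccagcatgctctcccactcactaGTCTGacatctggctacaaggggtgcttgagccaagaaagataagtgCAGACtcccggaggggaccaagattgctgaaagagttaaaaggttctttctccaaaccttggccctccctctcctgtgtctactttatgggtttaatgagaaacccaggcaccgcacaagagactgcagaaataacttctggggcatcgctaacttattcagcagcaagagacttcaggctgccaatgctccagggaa
Bgn, chrX:73483351-73483650: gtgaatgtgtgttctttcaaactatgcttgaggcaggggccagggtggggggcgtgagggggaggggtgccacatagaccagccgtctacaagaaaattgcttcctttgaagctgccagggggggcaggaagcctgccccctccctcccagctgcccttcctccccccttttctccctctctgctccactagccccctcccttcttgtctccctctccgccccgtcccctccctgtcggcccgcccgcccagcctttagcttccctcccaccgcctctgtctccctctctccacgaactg

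The windows of the 3 genes that rose and have one differed in base composition and motifs. The Bgn window had 63.7% G and C and held none of the motifs, and the Aspn window had 31.0% G and C and 2 TATA matches. The Fmod window had 51.0% G and C with 2 SMAD matches, a motif found in 49.6% of all 32851 windows. TEAD proteins are the DNA-binding partners of YAP, the mechanosensitive regulator that the study follows. Among the 9 windows of the 8 genes (Podn has 2) the TEAD motif occurred in 1, that of Ogn, and it occurs in 14.7% of all windows. The SMAD motif was in 3 of the 9, those of Fmod, of Prelp and 1 of Podn, of which Prelp and Podn were not called. The AP-1 motif was in none of the 9 (7.81% of all windows). The letters of the TATA box, on either strand, were in 2, those of Aspn and Ogn (13.6% of all windows). All of these matches lay nearer to the upstream end of the window than to the gene start. Whether they work as a TATA box was not tested. The median over all windows was 52.7% G and C.

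Genes that work with the SLRPs were grouped in lists. Of all genes, edgeR called 2.89% higher and 0.872% lower, and DESeq2 called 6.73% higher. At unadjusted p below 0.05 with a 2-fold change, the share over all genes was counted only in fits without 1 tumor. It was 8.12% higher without footpad replicate 3 and 7.20% higher without flank replicate 3. Of 12 collagen genes whose fibrils or filaments SLRPs bind, 8 rose and 1 fell (10 and 1 in DESeq2), with a median log2 fold change of 3.03. The 8 were Col1a1, Col1a2, Col3a1, Col5a1, Col5a2, Col6a1, Col6a2 and Col6a3. Col1a1, the main chain of type I collagen, was at 686, 543 and 648 CPM in footpad tumors and at 15.01, 74.3 and 19.9 CPM in flank tumors (log2 fold change 4.10, edgeR adjusted p = 0.0206). Col2a1, the chain of cartilage collagen, fell, from 47.2, 31.0 and 40.8 CPM in flank tumors to 7.32, 5.56 and 5.25 CPM in footpad tumors (log2 fold change -2.72, edgeR adjusted p = 0.00677). Flank replicate 2, the flank tumor highest in Dcn and Bgn, was also the highest in Col1a1.

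Set against type I collagen in the same tumor, biglycan was lower in the footpad and decorin was not apart. The log2 ratio of Bgn to Col1a1 was -2.77, -3.34 and -2.72 in footpad tumors and -1.55, -2.20 and -2.21 in flank tumors, without overlap. The log2 ratio of Dcn to Col1a1 was -4.35, -3.68 and -3.59 in footpad and -3.27, -3.21 and -3.80 in flank tumors, and overlapped. These ratios were chosen with the values known and were not tested.

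The enzymes that build the sugar chains of SLRPs were mostly not called. Of 6 enzymes of the linker that joins each chain to the protein, among them Xylt1 and Fam20b, 0 passed in either direction, 0 had a 2-fold change at unadjusted p below 0.05, and DESeq2 called 0. Fam20b, a kinase of the linker, was at 96.0, 132.3 and 107.7 CPM in footpad and at 99.5, 112.0 and 131.4 CPM in flank tumors (log2 fold change -0.03 ± 0.17, SE; edgeR, adjusted p = 0.932). Of 15 enzymes of chondroitin and dermatan sulfate, 2 rose (3 in DESeq2). Csgalnact1, which starts chondroitin chains, was at 15.4, 8.34 and 21.8 CPM in footpad and at 1.83, 3.15 and 1.68 CPM in flank tumors (log2 fold change 2.78, edgeR adjusted p = 0.0206), and Chst11, a chondroitin sulfotransferase, had a log2 fold change of 2.97 (edgeR adjusted p = 0.0269). Dse and Chst14, which make dermatan sulfate, did not pass. Of 6 tested enzymes of keratan sulfate, 0 were called by edgeR, where 2 higher and 1 lower had a 2-fold change at unadjusted p below 0.05, and DESeq2 called the same numbers. B4galt1 had a log2 fold change of 0.69 (edgeR adjusted p = 0.0276), which is under a fold change of 2.

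Among 11 proteases that cut SLRPs or their precursors and their cofactor, 1 rose (3 in DESeq2, and 4 with a 2-fold change at unadjusted p below 0.05). This was Bmp1, which removes the propeptide of biglycan and osteoglycin and matures fibrillar collagens, with 56.3, 64.7 and 71.5 CPM in footpad tumors and 28.8, 32.7 and 24.9 CPM in flank tumors (log2 fold change 1.16 ± 0.16, SE; edgeR, adjusted p = 0.0154). Of 17 receptors and ligands that bind SLRPs, 2 rose, beside 2.89% of all genes in edgeR. DESeq2 called 7, beside 6.73% of all genes, and 8 were higher with a 2-fold change at unadjusted p below 0.05. The 2 were the growth factor Bmp2 (log2 fold change 3.30, edgeR adjusted p = 0.0233) and the matricellular ligand Ccn4 (2.25, edgeR adjusted p = 0.0275). Bmp2 had at most 0.171 CPM in a flank tumor and passed the filter on low counts through the footpad tumors. Egfr, a receptor to which decorin binds, was at 10.8, 11.4 and 15.3 CPM in footpad and at 0.155, 3.01 and 0.591 CPM in flank tumors and did not pass (log2 fold change 3.32 ± 0.90, SE; edgeR, adjusted p = 0.0749). Tlr4, a receptor for soluble biglycan, had 91.4, 88.5 and 99.1 CPM against 123.8, 89.2 and 114.1 CPM (log2 fold change -0.23, edgeR adjusted p = 0.391).

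Proteoglycans outside the family moved in both directions. Of 18 tested, 5 rose and 1 fell (7 and 1 in DESeq2), with a median log2 fold change of 0.66. Vcan, which codes for the large hyaluronan-binding versican, was at 95.8, 60.6 and 92.5 CPM in footpad and at 1.28, 10.3 and 1.39 CPM in flank tumors (log2 fold change 4.26, edgeR adjusted p = 0.0365). Hspg2, Cspg4, Sdc3 and Gpc4 were the others that rose, with log2 fold changes of 1.29, 1.62, 2.09 and 1.62, and Bcan, which codes for the brain proteoglycan brevican, fell (-1.93, edgeR adjusted p = 0.0365). Of the SLRP genes outside the 10, Ecm2, Optc and Tsku were tested, of which Ecm2 rose.

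Many fibroblast markers, though not all, rose along with the SLRP genes. Of all genes, edgeR called 2.89% higher and DESeq2 6.73%, the shares to set beside the marker counts. Of 16 markers that hold no SLRP and no collagen gene, 8 rose and 0 fell (12 and 0 in DESeq2). Twist2, 1 of the 8, had at most 0.0855 CPM in a flank tumor and passed the filter on low counts through the footpad tumors. So did Prrx2, Pi16 and Dpt, which edgeR did not call. All 16 markers had reads in at least 1 tumor. Their sum was between 581 and 676 CPM in footpad tumors and between 96.9 and 171 CPM in flank tumors, where flank replicate 2 was the highest. The 10 SLRP genes summed to 163.6, 140.9 and 206.2 CPM in footpad and to 13.8, 36.0 and 12.96 CPM in flank tumors. The log2 ratio of these sums was -1.83, -2.05 and -1.71 in footpad and -2.81, -2.25 and -2.97 in flank tumors. The SLRP sum was thus the higher relative to this marker sum in each footpad tumor, by 0.81 in the mean. The flank sum leans on abundant markers that changed less. Fbln1, which was not called, was at 45.3, 54.9 and 49.4 CPM in footpad and at 40.1, 32.2 and 49.3 CPM in flank tumors. Serpinf1 and Pdgfrb had log2 fold changes of 0.65 and 1.59, against 3.61 for Fbn1 and 4.32 for Mfap5. The ratio was not computed without single markers, so it does not hold for each marker. How far the amount of fibroblast RNA accounts for the SLRP levels was not tested.

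**Figure D5:**
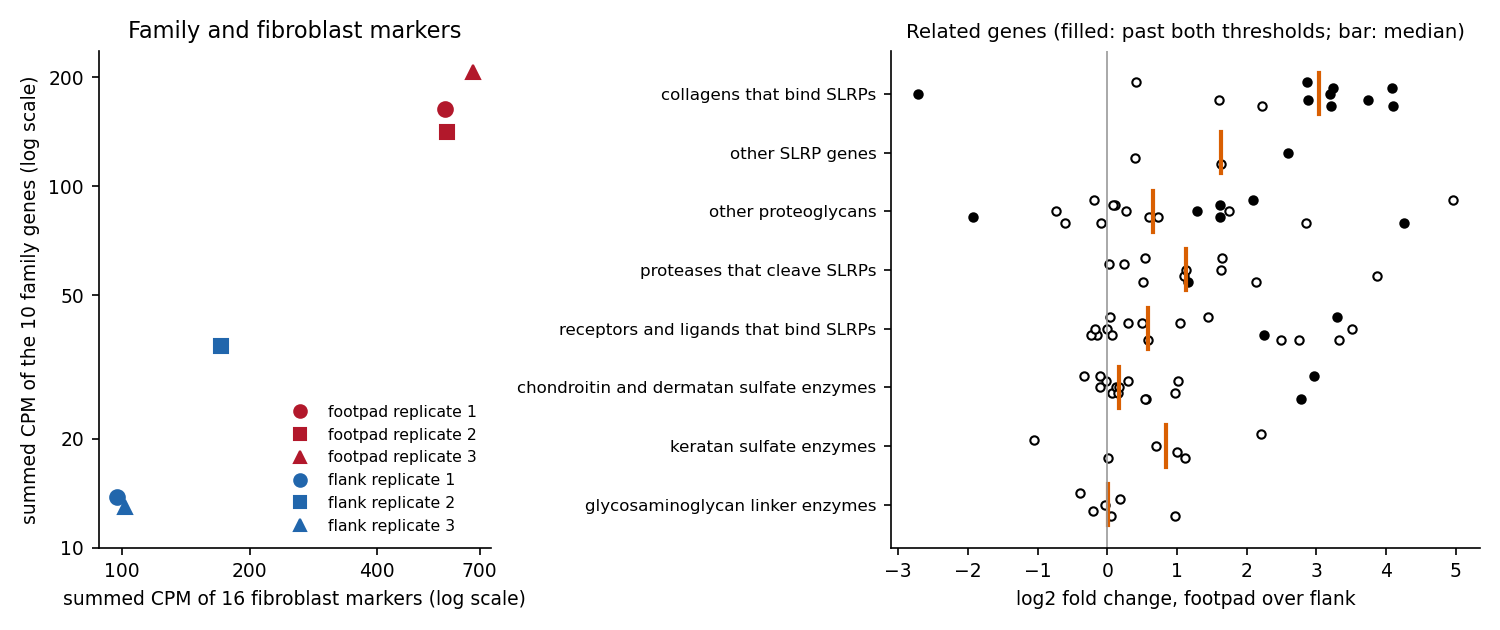
Left, summed CPM of the 10 SLRP genes against summed CPM of 16 fibroblast markers (log axes) in each tumor; right, log2 fold changes of the tested genes of 8 related lists, filled where past both thresholds, with the median as a bar. The footpad tumors (red) lie at 141 to 206 CPM for the SLRP genes and the flank tumors (blue) at 12.96 to 36.0 CPM, and the medians of the lists range from 0.01 in linker enzymes to 3.03 in collagens.

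Markers of tendon, which is rich in decorin, lumican and fibromodulin, summed to between 41.8 and 198 CPM in footpad and between 3.97 and 12.7 CPM in flank tumors, with 1 of 3 tested genes called higher. Most of the footpad sum was Thbs4, a thrombospondin, at 107.9, 36.9 and 186.4 CPM in footpad and 0, 8.45 and 0.272 CPM in flank tumors, which was not called (edgeR adjusted p = 0.0922). Egr1 made up most of the sum in flank replicates 1 and 3. It was at 8.40, 3.08 and 5.19 CPM in footpad and at 3.97, 4.16 and 7.57 CPM in flank tumors (log2 fold change 0.08, edgeR adjusted p = 0.922). Scx, Tnmd and Mkx, which define tendon cells, reached at most 0.438 CPM in any tumor and were not tested, whereas Comp, shared with cartilage, was at 0.606, 1.28 and 5.90 CPM in footpad tumors and had 0 reads in flank tumors. Comp was the gene called, and it passed the filter on low counts through the footpad tumors. Keratinocyte markers summed to 818 CPM and skeletal muscle markers to 590 CPM in footpad replicate 2, and to at most 80.7 and 71.8 CPM in the other tumors, and without this tumor the same 5 SLRP genes were called. Of these lists, 0 of 10 and 0 of 11 tested genes were called by edgeR, DESeq2 called 4 and 0, and 9 and 0 were higher with a 2-fold change at unadjusted p below 0.05. Cartilage and bone markers summed to between 17.1 and 26.8 CPM in footpad and between 35.2 and 64.5 CPM in flank tumors, with 1 called higher and 1 lower. Most of the flank sum was Col2a1, the gene called lower, at 47.2, 31.0 and 40.8 CPM. The gene called higher was Runx2 (log2 fold change 2.625). Neutrophil markers were high in footpad replicates 1 and 3, at 341 and 167 CPM, and at 6.61 CPM in footpad replicate 2, with 0 of 6 called by edgeR, 1 by DESeq2 and 6 with a 2-fold change at unadjusted p below 0.05. Endothelial markers had 3 of 8 members called higher (6 in DESeq2), macrophage and Schwann cell markers 1 of 7 and 1 of 6, and pericyte and adipocyte markers 0 of 6 and 0 of 4, where DESeq2 also called 0 and 0 had a 2-fold change at unadjusted p below 0.05. The label of a melanoma held at both sites, with 8 melanocyte markers summing to between 10070 and 18640 CPM in footpad and between 14810 and 25510 CPM in flank tumors. The part of these cells in the SLRP levels was not tested.

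Likeness of patterns was measured as the root mean square difference of log2 CPM, each gene centered on its own mean over the 6 tumors, against genes with a mean of 1 CPM or more. Within the family, Dcn and Bgn were each other's nearest (0.488), Lum was nearest to Bgn (0.503), and the nearest relative of Ogn was 0.941 away. Outside the family the genes most like Dcn were Fbn1 (0.209), Col1a2 (0.212) and Col3a1 (0.297), which code for fibrillin and collagen chains. Those most like Bgn were Prrx1 (0.169), Mrc2 (0.229) and Shc2 (0.238), and those most like Lum were Clmp (0.154), Col23a1 (0.174) and Fibin (0.207). For Aspn they were Fstl1 (0.242), Emp2 (0.281) and Plxdc2 (0.313). No gene came as near to Fmod, for which the nearest was Hdgfl3 (0.512). These 6 points share their libraries, and the distances are given as a description.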

How the data were processed

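The authors checked reads with FastQC 0.11.7, trimmed them with Trimmomatic, aligned them to mm10 with HISAT2 2.1.0 and deposited raw counts for each gene together with FPKM, which correct for length and depth. The counting program and its strand setting are not given in the sources used here. Samples were grouped by their labels. Tests were run in edgeR 4.0.16 under R 4.3.3 (TMM, filterByExpr, glmQLFit, glmQLFTest, Benjamini-Hochberg over 17210 genes), and standard errors were the fold change over the square root of F. P-values from edgeR set the difference between sites against the spread among the 3 tumors of each site, estimated in part from all genes tested. They treat the tumors as independent, although both sites may share hosts. Alternatives were DESeq2 1.42.0, limma 3.58.1 on log2(FPKM + 1) and log2(FPKM + 0.1), other filters and scaling, a replicate block and leaving out each tumor. The fits were checked on simulated data. Log2 CPM used a prior count of 1. Ratios and figures were made in Python 3.11.15. The 10 genes and all lists were chosen with earlier results of these data known. All 10 genes were named, and from the lists those past both thresholds by adjusted p, or the most abundant. Egfr, Tlr4, Dse, Chst14, Thbs4, the single tendon markers and the single fibroblast markers were named after their values were seen. Protein sequences were not analysed here. Positions and promoter windows are from RefSeq and strands and exons from GENCODE, both on GRCm38, the assembly of mm10.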

Additional observations from a re-analysis of the deposited data

How the results depend on the processing

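No fold change of the 8 tested SLRP genes changed sign under any alternative run. All 5 calls held under DESeq2, upper-quartile scaling, no filter on low counts, log2(FPKM + 0.1) and without a fold threshold. A minimum of 10 counts in every tumor left Fmod and Podn untested and called 4. With limma on log2(FPKM + 1), 2 of the 5 passed (Bgn and Dcn), and the log2 fold change of Fmod was 0.71. The pseudocount exceeds the level of Fmod in every tumor but footpad replicate 3, at 1.32 FPKM. Leaving out single tumors gave between 0 and 5 calls, and the cause was not tested. With a replicate block, which leaves fewer degrees of freedom, 0 SLRP genes and 0 of all genes passed in edgeR. In that fit 6 SLRP genes were higher with a 2-fold change at unadjusted p below 0.05. The share over all genes at this threshold was not counted for it, so the 6 cannot be set beside a background. Same-numbered tumors did not deviate together (Pearson's r across genes 0.0544, -0.0965 and -0.115), and no tumor correlated best with its own number. Over all genes, 497 higher and 150 lower calls became 1154 and 352 with DESeq2, 189 and 59 with log2(FPKM + 1), and 0 to 639 and 0 to 197 without single tumors. Without a fold threshold there were 590 and 248. The log2 ratio of the SLRP sum to the fibroblast marker sum was 1.35 higher in footpad tumors from FPKM, against 0.81 from CPM. It was 0.67 to 1.03 higher without single tumors, and leaving out single markers was not tried. Depth limits Omd, Kera and the flank values of Fmod, which rest on 14 reads or fewer.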
